A study of Mus musculus with 6 samples.

Results

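The Gprc5 family of orphan receptors (Gprc5a, Gprc5b, Gprc5c and Gprc5d) was followed in intestinal crypt stem cells with and without overexpression of circEZH2_005. The 4 members were found by gene name among 28752 genes listed. The family was chosen by the higher counts of Gprc5a in the circEZH2_005 samples, so the values of its members in that contrast are given as a description, with no test. RNA sequencing was performed on 3 vector samples (genotype WT in the labels) and 3 samples with circEZH2_005 overexpression. The cells were Lgr5+ intestinal stem cells (ISCs) sorted from Lgr5-GFP reporter mice and grown into organoids, and circEZH2_005 was delivered by an adenovirus that, per the methods, also carried GFP. Both groups were exposed to hypoxia/reoxygenation (H/R), with 4 h at 2% O2, after 72 h of infection per the labels. No sample in normal oxygen was analysed here. The study calls its organoid replicates biological, but the labels do not say whether they came from different animals or cultures. The p-values measure the spread between these samples, part of which may be technical.

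G protein-coupled receptors cross the cell membrane 7 times and pass signals from outside to proteins inside the cell. Class C holds the receptors for glutamate, GABA, calcium and sweet or savoury taste, most of which catch their ligand with a large outer domain. The Gprc5 members are placed in class C by sequence, have only a short outer segment, and no ligand for them is generally accepted. Gprc5a was first described as a gene induced by retinoic acid and is best known as a lung tumour suppressor of mice. Gprc5b has been studied in fat tissue and brain, Gprc5c in kidney and blood stem cells, and Gprc5d in hair follicles and plasma cells.

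Counts summed to between 71506487 and 79919893 per sample, and 18348 genes passed the filter on low counts. A level was taken as detectable from 3 counts upwards, which is 0.0377 to 0.0419 CPM depending on the sample and covers counting error only. CPM are counts relative to the library size, scaled by the TMM method. The stem cell markers Lgr5 and Olfm4 were detected in every sample. Lgr5 fell from 15.5 CPM with vector to 8.45 CPM with circEZH2_005 (log2 fold change -0.88, adjusted p = 0.0434 by edgeR). Whether the call of Lgr5 held with other scaling, other tests or samples left out was not examined. Of 7 stem cell markers 0 were called higher and 2 lower, beside 2.69% and 0.986% of all genes tested. Their median log2 fold change was -0.42, and 2 of the 7 were above 0. Of 7 epithelial markers 2 were called higher and 0 lower, beside the same shares of all genes tested. Vector sample 2 resembled the circEZH2_005 group more than vector samples 1 and 3 did, with correlations of log2 CPM to that group between 0.965 and 0.971 against 0.951 to 0.964. For Ezh2, the host gene of the circular RNA, the mRNA differed by -0.13 on the log2 scale (edgeR, adjusted p = 0.511). circEZH2_005 itself was not analysed here, since the table lists genes and the RNA was selected by its poly(A) tail.

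Gprc5a (ENSMUSG00000046733, chromosome 6, 135065651 to 135084709, plus strand, GRCm38) was the most abundant member in every sample. Its level was 10.4, 11.3 and 10.8 CPM in vector samples 1 to 3. With circEZH2_005 it was 47.2, 61.1 and 48.6 CPM. The groups did not overlap, and the lowest circEZH2_005 sample stood well above the highest vector sample. The group means were 10.8 ± 0.44 CPM and 52.3 ± 7.65 CPM (SD, n = 3 each), a 4.83-fold difference in the edgeR fit (log2 fold change 2.27, standard error 0.12). In bulk samples, a different number of cells expressing a gene and a different amount of its RNA per cell cannot be told apart.

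Gprc5b (ENSMUSG00000008734, chromosome 7, 118972047 to 118995211, minus strand) had the opposite pattern, at a far lower level. Vector samples 1 to 3 held 59, 72 and 82 reads of it. The reads numbered 22, 7 and 25 with circEZH2_005. All circEZH2_005 samples lay below all vector samples, and circEZH2_005 sample 2, which was highest for Gprc5a, was lowest for Gprc5b. The mean level was 0.942 ± 0.118 CPM with vector and 0.240 ± 0.131 CPM with circEZH2_005 (SD, n = 3 each). The fitted level was 3.91-fold lower with circEZH2_005 (log2 fold change -1.97, standard error 0.51). Of the 18348 genes tested, Gprc5a was at place 245 from the highest log2 fold change and Gprc5b at place 70 from the lowest. These places come from the contrast that chose the family, and that of Gprc5b rests on few reads, so nothing is read from them. Without circEZH2_005 sample 2 the log2 fold change of Gprc5b was -1.59. The annotated exons of Gprc5b share 606 bases, or 13.1% of their length, with Iqck on the other strand. No source used here says that strand was used in counting. Iqck itself was at 0.560 ± 0.315 CPM with vector and 0.497 ± 0.238 CPM with circEZH2_005 (SD, n = 3 each), and differed by -0.17 on the log2 scale (edgeR, adjusted p = 0.898).

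Gprc5c (ENSMUSG00000051043, chromosome 11, 114851152 to 114872617, plus strand) had similar levels in both groups. Vector samples 1 to 3 held 125, 111 and 74 reads. The numbers with circEZH2_005 were 112, 148 and 117. The groups overlapped, with vector sample 1 above circEZH2_005 samples 1 and 3 after scaling. The mean level was 1.39 ± 0.40 CPM with vector and 1.68 ± 0.29 CPM with circEZH2_005 (SD, n = 3 each). The log2 fold change was 0.28 with a standard error of 0.30.

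Gprc5d (ENSMUSG00000030205, chromosome 6, 135105991 to 135118283, minus strand) was at or near no expression. It had 0 counts in 5 samples and 4 counts in circEZH2_005 sample 2. In the samples without a count, levels of up to 0.0419 CPM would not have been seen. It did not pass the filter on low counts, and no fold change is given. Plasma cells are a known site of Gprc5d, so their markers are given beside it. With vector, 6 plasma cell markers summed to 33.5, 58.6 and 36.8 CPM. With circEZH2_005 the sums were 209, 108 and 59.2 CPM, and the sample with the 4 counts was not the highest. Each of the 6 markers had reads in every sample, and 1, Prdm1, rose, beside 2.69% of all genes tested. Prdm1 is also used by gut epithelium. Tnfrsf17, a defining plasma cell gene, was not analysed here.

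**Figure D1:**
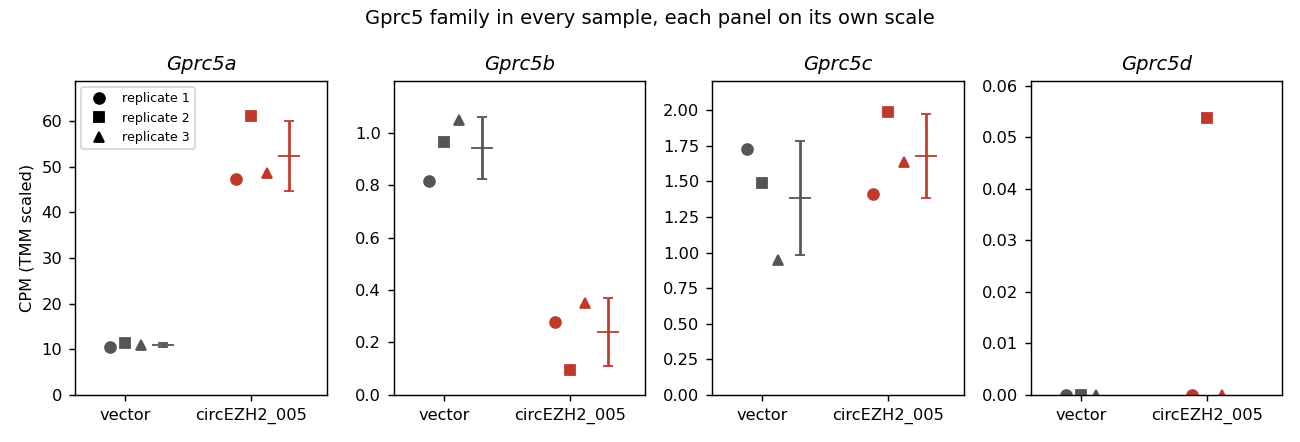
Level of each member (CPM, linear axis from 0, a different scale in each panel) in the 3 vector and 3 circEZH2_005 samples, with bars for the mean ± SD of 3 samples except for Gprc5d. Gprc5a lies between 47.2 and 61.1 CPM with circEZH2_005 and near 10.8 CPM with vector, Gprc5b is lower with circEZH2_005, Gprc5c overlaps between the groups, and Gprc5d has a value above 0 in a single sample.

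Of the 4 members 3 were tested and 1, Gprc5a, was called at an adjusted p under 0.05 by edgeR. Over all genes tested edgeR called 3.67% in either direction, 2.69% as higher and 0.986% as lower. Gprc5a was called in all 13 alternative analyses described at the end. Gprc5b was called in 1 of them, DESeq2, which called more genes than edgeR in both directions. Of the 4 members 2, Gprc5a and Gprc5b, had groups that did not overlap, beside 30.6% of all genes tested. Since this contrast chose the family, nothing is read from these counts.

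Because all members were read from the same library, they were also compared within each sample, which takes scaling between samples out. The log2 ratio of Gprc5a to Gprc5c was 2.57, 2.90 and 3.48 with vector, and it was 5.04, 4.92 and 4.87 with circEZH2_005. Every circEZH2_005 sample lay above every vector sample, and the means differed by 1.96. The log2 ratio of Gprc5a to Gprc5b was between 3.34 and 3.63 with vector and was 7.28, 8.98 and 7.02 with circEZH2_005. These means differed by 4.27, and the circEZH2_005 samples spread more (SD 1.07 against 0.149), at the low counts of Gprc5b there. The log2 ratio of Gprc5b to Gprc5c was -1.06, -0.61 and 0.14 with vector and -2.24, -4.06 and -2.14 with circEZH2_005. None of the 3 ratios overlapped between the groups. Each ratio holds Gprc5a or Gprc5b, which already separated the groups alone in the contrast that chose the family, so nothing is read from this.

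**Figure D2:**
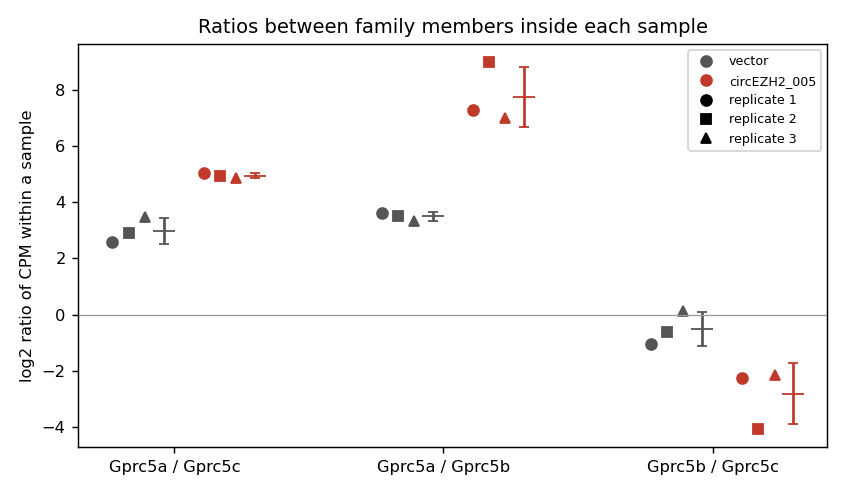
Log2 ratio of CPM (2 counts added before taking logs) between pairs of members inside each of the 6 samples, with bars for the mean ± SD of 3 samples. Both ratios of Gprc5a are higher in every circEZH2_005 sample, with means of 4.94 and 7.76, than in every vector sample, and the ratio of Gprc5b to Gprc5c is lower.

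Levels of different genes were ordered per transcript length, on the FPKM values deposited with the counts. The log2 ratios of CPM above carry no length correction, so their size is not a ratio of levels per transcript. With vector the order was Gprc5a at 4.81 ± 0.26 FPKM, Gprc5c at 0.242 ± 0.068 FPKM, Gprc5b at 0.187 ± 0.027 FPKM and Gprc5d, which was listed at 0. Gprc5c and Gprc5b did not differ beyond their spread there, and their order was turned in vector sample 3. With circEZH2_005 the order was Gprc5a at 21.8 ± 2.41 FPKM, Gprc5c at 0.275 ± 0.035 FPKM, Gprc5b at 0.0441 ± 0.0248 FPKM and Gprc5d, listed above 0 in 1 sample (SD, n = 3). The samples of Gprc5c and Gprc5b no longer overlapped. Counts per kb of annotated exons, another length correction on the same libraries, gave this order of means in both groups. With vector, Gprc5c was at 0.264 ± 0.076 and Gprc5b at 0.203 ± 0.025 CPM per kb. In vector sample 3 their order was again turned, at 0.180 and 0.226. Gprc5a made up between 90.9% and 92.8% of the summed FPKM of the family in vector samples and between 98.4% and 98.6% in circEZH2_005 samples.

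The place of Gprc5a among the receptors of these cells was also examined. The table assigns 407 listed genes to G protein-coupled receptor activity, an annotation that was looked up after the members' values were known. Of these, 38 had a mean of at least 1 FPKM with vector and 50 with circEZH2_005. By mean FPKM Gprc5a was at place 15 with vector and at place 3 with circEZH2_005. With circEZH2_005 only the adhesion receptor Adgrg7, at 99.6 FPKM, and Vipr1, the receptor for vasoactive intestinal peptide, at 37.0 FPKM, were above it. The Wnt pathway receptors Fzd5 and Lgr4 came next, at 19.9 and 19.4 FPKM. Gprc5c stood at place 80 and 81, and Gprc5b at place 89 and 164. No test was made on these places.

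The members are distant relatives in sequence. Their coding sequences were between 63.2% and 65.7% identical in pairwise alignments, and 0 stretches of 30 bases were shared between the annotated coding transcripts of any pair. For lengths, the coding transcript with the longest 3'UTR was taken for each member. For Gprc5d alone, that transcript is not among those listed with the deposited counts. The coding region holds 356 codons in Gprc5a, 410 in Gprc5b, 441 in Gprc5c and 300 in Gprc5d. The transcripts differ most in their 3'UTR, which has 876 nt in Gprc5a, 3112 nt in Gprc5b, 2264 nt in Gprc5c and 267 nt in Gprc5d (GENCODE M21, the coding transcript with the longest 3'UTR). Gprc5a has a single annotated transcript, with 4 exons.

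UAGGG is a recognition core of hnRNPA1, an RNA-binding protein that the study reports to bind the mRNA of Gprc5a. Its evidence was predicted motifs in the Gprc5a 3'UTR, enrichment of the mRNA with an hnRNPA1 antibody, and a pull-down with that 3'UTR. The study also reports a more stable Gprc5a mRNA with hnRNPA1 overexpression. The UAGGG core was searched in the 3'UTRs of all members, on the transcribed strand. It was found 7 times, 4 times in Gprc5b and 3 times in Gprc5c, and not in Gprc5a or Gprc5d. The 7 sites shown are all that were found in the family. Each is printed 5′ to 3′ with 10 bases on each side, the core in capitals, and its GRCm38 position:
Gprc5b, chr7:118974290-118974294, minus strand: gaagcucaagUAGGGucgccagcuu
Gprc5b, chr7:118973593-118973597, minus strand: uguagagccuUAGGGagguguggcc
Gprc5b, chr7:118973355-118973359, minus strand: gaaagaaagcUAGGGcugugugggg
Gprc5b, chr7:118972849-118972853, minus strand: gcaaaagaagUAGGGccacaucuac
Gprc5c, chr11:114870532-114870536, plus strand: cuggugcucaUAGGGccaccugucc
Gprc5c, chr11:114870820-114870824, plus strand: uuacccuacuUAGGGccugcugcac
Gprc5c, chr11:114871113-114871117, plus strand: acaguggugcUAGGGuuuugcaccg

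Of 20661 mouse 3'UTRs of at least 50 nt, 47.2% hold at least 1 UAGGG, and 16.5% and 15.7% have more per kb than Gprc5b (1.29 per kb) and Gprc5c (1.33 per kb). A looser purine motif, which takes in GAAGG as well as GAGGG together with GGAGG and also with GGGGG, had 3 sites in Gprc5a, 28 in Gprc5b, 15 in Gprc5c and 0 in Gprc5d. Per kb this was 3.42, 8.997, 6.63 and 0, against a median of 3.82 over all 3'UTRs. The motif GUAGUGU had 0 sites in each member and occurs in 7.64% of 3'UTRs. AUUUA is found in AU-rich elements, and the study states that hnRNPA1 can bind sequences rich in it. It was present 3 times in Gprc5b and not in the others, and 66.2% of 3'UTRs hold it. These matches describe letters only. The protein binds other sequences too, so neither a match nor its absence says whether a member is bound. The mRNA of Hnrnpa1 was at 525 ± 5.06 CPM with vector and 451 ± 49.9 CPM with circEZH2_005 (SD, n = 3 each), a difference of -0.22 on the log2 scale (edgeR, adjusted p = 0.231).

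Promoter sequences, from 250 bases before to 50 after the transcript start, were matched for Gprc5b and Gprc5d in RefSeq (GRCm38.p6). They are shown because these 2 were the only members with an entry in the promoter set used. The promoters of Gprc5a and Gprc5c were not examined. Whether the sequences bear on the levels of the members was not tested. Capitals mark GGGCGG, the GC box, on either strand:
Gprc5b, chr7:118995162-118995461, minus strand: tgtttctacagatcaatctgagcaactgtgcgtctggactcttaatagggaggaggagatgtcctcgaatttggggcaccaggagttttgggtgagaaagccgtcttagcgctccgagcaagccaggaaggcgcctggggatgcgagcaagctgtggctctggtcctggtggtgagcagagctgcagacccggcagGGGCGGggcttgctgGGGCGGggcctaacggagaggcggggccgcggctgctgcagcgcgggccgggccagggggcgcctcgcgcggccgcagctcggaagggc
Gprc5d, chr6:135118234-135118533, minus strand: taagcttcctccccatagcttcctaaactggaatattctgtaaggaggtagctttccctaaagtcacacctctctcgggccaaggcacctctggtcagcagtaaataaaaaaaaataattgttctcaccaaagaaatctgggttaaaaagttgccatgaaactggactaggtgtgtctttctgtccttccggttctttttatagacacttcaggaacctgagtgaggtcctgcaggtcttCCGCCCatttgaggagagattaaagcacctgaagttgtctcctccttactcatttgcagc

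The Gprc5b promoter is 66.3% G or C with 23 CpG dinucleotides, more than 78.5% of 32851 mouse promoters of the same length. The Gprc5d promoter is 44.3% G or C with 3 CpG, where the median is 7. The GC box occurred 2 times in Gprc5b and 1 time in Gprc5d, and 35.7% of promoters hold it. TATAAA occurred 1 time in Gprc5d, on the opposite strand, and not in Gprc5b (13.6% of promoters). Neither held TGANTCA, the AP-1 motif, TGACGTCA, the cAMP response element, or AGGTCA, the half-site of retinoid and related receptors, on either strand. These occur in 7.81%, 1.79% and 16.3% of promoters.

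Gprc5a and Gprc5d are neighbours on chromosome 6. They are 21.3 kb apart with no annotated gene between them, and their 3′ ends face each other. Genes whose start lies within 500 kb of that of Gprc5a were examined to see whether the difference extended along the chromosome. Of 25 such genes listed besides the family, 17 were tested. Of these edgeR called 0 higher and 0 lower, beside 2.69% and 0.986% of all genes tested, with 1 at an unadjusted p under 0.05. DESeq2 and both limma fits called 0 as well. The median log2 fold change was -0.12, beside 2.15e-05 over all genes tested. Of the 17, 4 had a log2 fold change above 0, and 3 had groups that did not overlap, beside 30.6% of all genes tested. Upstream, Ddx47, an RNA helicase, had a log2 fold change of -0.12 (standard error 0.08), and Cdkn1b, the cell cycle inhibitor p27, had 0.13 (standard error 0.08). Downstream, Hebp1 had -0.59 (standard error 0.28) and Fam234b had -0.33 (standard error 0.10). Apold1 differed most among the 17, by 1.94 with a standard error of 1.40 (edgeR, adjusted p = 0.455). It had 10, 0 and 0 reads with vector against 21, 17 and 3 with circEZH2_005.

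**Figure D3:**
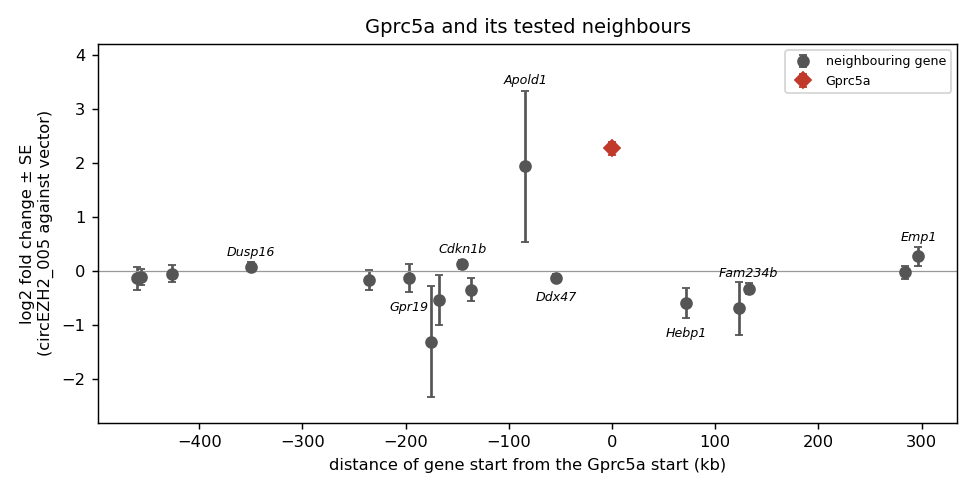
Log2 fold change ± standard error (circEZH2_005 against vector) of Gprc5a and the 17 tested genes starting within 500 kb of it, by the distance of their start in kb. Gprc5a is at 2.27, while the neighbours lie between -1.30 and 1.94, with wide errors for the outermost values.

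The genes whose levels followed each member most closely were found by Pearson's r of log2 CPM over the 6 samples, among 11601 or 11602 genes whose mean FPKM was 1 or more. The points share libraries and the group difference, and the correlations are given as a description. For Gprc5a they were Elmo1 (a Rac activator, r = 0.999), Hspa12a (a distant HSP70 relative, r = 0.998), Ceacam18 (r = 0.996), Eno3 (muscle-type enolase, r = 0.996) and Lama3 (a laminin chain, r = 0.995). For Gprc5b they were Nop10 (a part of small nucleolar ribonucleoproteins, r = 0.999), Gfer, Poglut3, Rars2 and the chemokine Ccl9, with r of at least 0.995. The log2 fold changes of these 5 genes lay between -0.75 and -0.32, smaller than that of Gprc5b. For Gprc5c, where the groups overlap, r was lower, between 0.952 and 0.976, for Snx20, Alkbh4, Gm10297, Cript and Calcoco1.

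Markers of leukocytes were higher in the same samples as Gprc5a. With vector, 11 leukocyte markers summed to 80.5, 257 and 98.9 CPM. With circEZH2_005 they summed to 590, 462 and 348 CPM. All 11 had a log2 fold change above 0 (median 1.68), 0 of 11 passed the adjustment by edgeR, and each had reads in both groups. Within the vector group, sample 2 had the highest sum of leukocyte markers. Its Gprc5a level was 11.3 CPM, beside 10.4 and 10.8 CPM in the others. Its marker sum of 257 CPM was still below the lowest sum with circEZH2_005, 348 CPM. Nothing about the group difference in Gprc5a is therefore read from this sample. The 6 enterocyte markers had a median log2 fold change of 0.89, and 1 rose, beside 2.69% of all genes tested. For Gprc5b, the stromal and endothelial markers summed to between 5.76 and 9.36 CPM with vector and between 5.54 and 16.4 CPM with circEZH2_005. Of 9 of these tested 1 rose and 0 fell, beside 2.69% and 0.986% of all genes tested. The part of these cells in the levels of the family was not tested.

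The family was then set beside the other class C receptors. Of 18 listed 7 were tested, and 0 rose and 0 fell by edgeR, beside 2.69% and 0.986% of all genes tested. Of the 7, 2 were at an unadjusted p under 0.05 by edgeR, and DESeq2 called 1 higher. Their median log2 fold change was 0.37. Grm4, a glutamate receptor, differed most among the 7, by 1.34 with a standard error of 0.32 (edgeR, adjusted p = 0.0595). It had 49, 50 and 44 reads with vector against 133, 152 and 80 with circEZH2_005. The summed level of all 18 was between 8.14 and 8.99 CPM with vector and between 10.4 and 12.8 CPM with circEZH2_005.

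Genes of retinoid metabolism and signalling were examined because of the history of Gprc5a as a retinoic acid-induced gene. Of 17 tested 1 rose and 2 fell by edgeR, beside 2.69% and 0.986% of all genes tested. Of the 17, 6 were at an unadjusted p under 0.05 by edgeR. Their median log2 fold change was 0.10. Bco1, which cleaves beta-carotene to retinal, rose from 2.12 to 9.65 CPM (log2 fold change 2.19, adjusted p = 0.0207). Dhrs9, a dehydrogenase that acts on retinol, fell by 1.69 on the log2 scale (adjusted p = 0.0286). Over the alternatives the adjusted p ranged from 5.26e-11 to 0.107 for Bco1 and from 3.26e-07 to 0.122 for Dhrs9. Leaving out vector sample 1, vector sample 3 or circEZH2_005 sample 2 ended the call of both genes. Leaving out circEZH2_005 sample 1 also ended that of Dhrs9. The retinoic acid receptors Rara and Rarg had log2 fold changes of 0.26 each and did not pass the adjustment. The retinoic acid-degrading Cyp26a1, a usual readout of the pathway, had 0 counts in every vector sample and in 2 circEZH2_005 samples.

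Gprc5a has been linked to restraint of EGFR, STAT3 and NF-kB signalling in lung. Of 13 genes of these pathways, all tested, 2 rose and 1 fell by edgeR, beside 2.69% and 0.986% of all genes tested. Of the 13, 7 were at an unadjusted p under 0.05 by edgeR. Their median log2 fold change was 0.23. Egfr was 23.0, 22.4 and 24.3 CPM with vector and 33.7, 31.6 and 29.8 CPM with circEZH2_005 (log2 fold change 0.45, adjusted p = 0.0426). Stat3 had a log2 fold change of 0.54 (adjusted p = 0.0496). The groups did not overlap for either gene, which was also so for 30.6% of all genes tested. Egfr was called in only 2 and Stat3 in only 3 of 13 alternatives, with adjusted p up to 0.166 and 0.187. Lcn2, an antimicrobial protein and a target of both STAT3 and NF-kB, fell by 5.36 on the log2 scale (adjusted p = 0.0214) and was called in 10 of 13, the exceptions being the fits without vector sample 1, vector sample 3 or circEZH2_005 sample 2. Its level was 6.29 CPM in vector sample 2 against 32.7 and 31.2 CPM in vector samples 1 and 3.

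**Figure D4:**
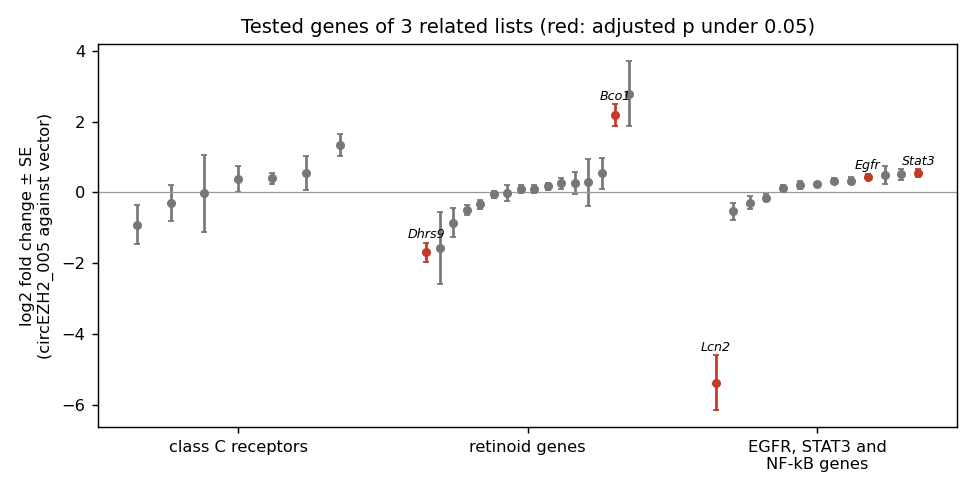
Log2 fold change ± standard error (circEZH2_005 against vector, n = 3 each) of the tested genes of the class C receptors, the retinoid genes (16 of 17 shown) and the EGFR, STAT3 and NF-kB genes, ordered within each list, with genes at an adjusted p under 0.05 in red. Named points are Bco1, Egfr and Stat3 above 0 and Dhrs9 and Lcn2 below 0.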

How the data were processed

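RNA sequencing covered 3 vector and 3 circEZH2_005 samples. The authors deposited a table with the raw count of reads per gene and sample, without normalization, and the FPKM value of each. The submitters' processing notes name mm10, cutadapt 1.9, HISAT2 2.0.4, StringTie 1.3.4d and DESeq2. Columns named as negative control were matched to the vector samples, the only controls, and 0 columns of values were unused. Positions of all 4 members matched GENCODE M21 (GRCm38).

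Genes were kept with filterByExpr, counts were scaled by TMM, and groups were compared with edgeR 4.0.16 (quasi-likelihood test, Benjamini-Hochberg over 18348 genes, threshold 0.05) in R 4.3.3. Standard errors were obtained from the F statistic and the log2 fold change. CPM use TMM-scaled library sizes. Within-sample log2 ratios added 2 counts. Alternatives were median-of-ratios and upper-quartile scaling, no filter, DESeq2 1.42.0, limma 3.58.1 on log2(FPKM + 1) or log2(FPKM + 0.1) for genes averaging 0.5 FPKM or more, the replicate block, and each sample left out. The tests were also run on simulated data, with the outcome not reported here.

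The members and gene lists were chosen with earlier results of these data known. Named are the members, list genes under the threshold (at most 4 per list by smallest p, otherwise the largest change), Ezh2, Hnrnpa1, and the 5 genes most correlated with each tested member. The values of 1 retinoid gene are not reported here. Other genes were named after their values were seen: Iqck, Lgr5, Olfm4, Prdm1, Tnfrsf17, Rara, Rarg, Cyp26a1, Ddx47, Cdkn1b, Hebp1, Fam234b and the receptors ranked beside Gprc5a.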

Additional observations from a re-analysis of the deposited data

How the results depend on the processing

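The log2 fold change of Gprc5a lay between 1.97 and 2.34 over 13 alternatives, that of Gprc5b between -2.33 and -1.59 and that of Gprc5c between 0.06 and 0.46 over 11, and none changed direction. With limma on log2(FPKM + 1) the value of Gprc5a was 1.97. The group difference in the within-sample ratio of Gprc5a to Gprc5b, taken without a fit, was 2.15 on log2(FPKM + 1) and 3.16 on log2(FPKM + 0.1), since the added constant shrinks low levels. Gprc5b and Gprc5c were too low for limma, and Gprc5d for the main filter.

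Counts of genes called moved more. Against 493 higher and 181 lower, no filter gave 132 and 37, DESeq2 1588 and 701, and limma 364 lower with 1 added, and 323 higher and 319 lower with 0.1 added. Of the EGFR, STAT3 and NF-kB genes called higher (2), median-of-ratios left 1, upper-quartile scaling, no filter and both limma fits left 0, and DESeq2 called 4. DESeq2 called 2 retinoid genes and 1 class C receptor higher, and no filter left 0 retinoid genes lower. With each sample left out, between 26 and 1098 genes were higher and between 2 and 334 lower. The highest counts came without vector sample 2. The lowest came without vector sample 1 (26 and 2), and leaving out vector sample 3 gave 31 and 2, circEZH2_005 sample 2 gave 62 and 6, and circEZH2_005 sample 3 gave 136 and 33. Retinoid genes called ranged from 0 to 1 higher and from 0 to 2 lower, and the EGFR, STAT3 and NF-kB genes from 0 to 2 higher and from 0 to 1 lower. The cause was not tested.

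With the replicate block, 241 genes were higher and 36 lower, 1 retinoid gene was lower and 0 EGFR, STAT3 and NF-kB genes were higher. Gprc5a had 2.26, Gprc5b -2.09 and Gprc5c 0.30. The labels do not say that same-numbered samples were paired, their deviations from the group means had correlations of -0.14, -0.02 and 0.04, and 1 of 6 samples correlated best with its own number. Depth limits the precision of Gprc5b, with 54 counts over the circEZH2_005 samples, and of Gprc5d.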
